A study of Mus musculus with 11 samples.

Results

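Etnppl, Slc25a34, Cyp4f15, Cyp4f13 and Cyp4f14 encode metabolic enzymes and a carrier, and their messenger RNA levels were followed in brain tissue and in cultured neural stem cells of mice labelled as lacking the clock gene Bmal1 and of wild-type mice. They are 5 of the 24411 genes counted. Etnppl, Slc25a34 and Cyp4f15 were chosen because their counts were lower in the knockout corpus callosum, so their values in that contrast are given as a description with no test. Cyp4f13 and Cyp4f14 were chosen as family members of Cyp4f15 and were tested, although the choice was made with earlier results of these libraries known.

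RNA was sequenced from 11 libraries in 4 groups. The groups were corpus callosum labelled Bmal1-/- (BKO callosum, n = 2), wild-type corpus callosum (WT callosum, n = 3), neurospheres labelled Bmal1-/- (BKO neurospheres, n = 3) and wild-type neurospheres (WT neurospheres, n = 3). All mice were 8 to 10 weeks old. The corpus callosum is the tract of myelinated axons between the hemispheres. Neurospheres are free-floating balls of dividing neural stem cells and their progeny, here grown for a week in EGF and heparin from dissociated subventricular zone (SVZ), the germinal layer beside the lateral ventricles. The labels do not say how the Bmal1 allele was made, whether animals were pooled, or at what hour tissue was taken.

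Libraries held 17450270 to 19717848 gene counts, and levels are given as CPM, a gene's count scaled to the library total, after TMM scaling over all 11 libraries. Arntl, the gene symbol of Bmal1, stood at 32.6 and 40.8 CPM in the callosum libraries labelled BKO, against 33.0 to 39.7 CPM in WT callosum. It stood at 40.5 to 48.2 CPM in the neurospheres labelled BKO, against 37.9 to 48.8 CPM in WT neurospheres. The count of the targeted gene therefore did not separate the labels, and a genotype is given below as labelled. Myelin genes marked the callosum, with 12 of them summing to 25080 and 35240 CPM in BKO callosum, 22610 to 34180 CPM in WT callosum and 1509 to 2577 CPM in neurospheres. The callosum libraries also held neuronal RNA, with 8 neuron markers summing to 7364 and 8775 CPM in BKO and 6551 to 8196 CPM in WT callosum. In neurospheres those 8 summed to 97.8 to 113 CPM. Stem and progenitor genes marked the neurospheres, with 7 of them summing to 4682 to 6609 CPM in BKO and 3571 to 4544 CPM in WT neurospheres, against 160 to 271 CPM in callosum.

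Etnppl encodes ethanolamine-phosphate phospho-lyase, which breaks phosphoethanolamine down to acetaldehyde, phosphate and ammonia and so draws on the pool from which phosphatidylethanolamine is made. In brain it is known as a gene of astrocytes. Slc25a34 belongs to the family of carriers that move metabolites across the inner mitochondrial membrane. The Cyp4f genes encode cytochrome P450 enzymes of the endoplasmic reticulum that hydroxylate the far (omega) end of fatty acids and eicosanoids, among them the inflammatory mediator leukotriene B4. BMAL1 is a transcription factor that, as a dimer with CLOCK or NPAS2, binds E-box sequences and drives the circadian clock, and its output reaches many metabolic genes through further factors that bind D-box and RRE sequences.

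The promoters of the 3 members that were lower in BKO callosum are printed because they were searched for the sequences that clock factors bind. Each runs from 250 bases before to 50 bases after the gene's start in the RefSeq annotation of GRCm38.p6, 5′ to 3′ on the strand of the gene. The windows are chr3:130617198-130617497 (plus strand) for the first of 2 Etnppl starts, chr4:141623785-141624084 (minus strand) for Slc25a34 and chr17:32685409-32685708 (plus strand) for Cyp4f15. Capitals mark a CCAAT box (CCAAT or, on the other strand, ATTGG) and an RRE (TGGGTCA, here on the other strand as TGACCCA).
Etnppl promoter: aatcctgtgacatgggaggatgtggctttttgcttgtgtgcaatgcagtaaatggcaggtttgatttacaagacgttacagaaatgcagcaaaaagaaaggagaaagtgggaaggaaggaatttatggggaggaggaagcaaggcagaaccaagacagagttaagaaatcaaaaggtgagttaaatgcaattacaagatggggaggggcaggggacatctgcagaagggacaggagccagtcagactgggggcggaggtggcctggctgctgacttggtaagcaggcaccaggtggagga
Slc25a34 promoter: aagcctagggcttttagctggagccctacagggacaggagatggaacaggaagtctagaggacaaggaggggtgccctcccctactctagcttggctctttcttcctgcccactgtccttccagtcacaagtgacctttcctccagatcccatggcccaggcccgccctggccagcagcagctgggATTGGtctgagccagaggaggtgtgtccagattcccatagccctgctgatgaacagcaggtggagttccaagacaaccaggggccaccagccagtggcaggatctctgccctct
Cyp4f15 promoter: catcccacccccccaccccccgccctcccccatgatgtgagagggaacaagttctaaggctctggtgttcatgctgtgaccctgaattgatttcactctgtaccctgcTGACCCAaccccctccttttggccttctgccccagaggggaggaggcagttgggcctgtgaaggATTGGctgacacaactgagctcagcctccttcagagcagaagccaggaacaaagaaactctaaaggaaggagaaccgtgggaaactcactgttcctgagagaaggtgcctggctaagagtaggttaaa

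All 5 members were matched to a promoter window. The E-box CACGTG, present on either strand in 7.15% of 32851 promoter windows of the same length, was in none of the windows of the 5 members. Nor were the related CACGTT, present in 4.68% of windows, or the D-box forms TTATGTAA (0.938%) and TTACGTAA (0.119%). The RRE form TGGGTCA, present in 3.98% of windows, was found for Cyp4f15 alone among the members, 142 bases before the start, and the RRE form TAGGTCA (2.61%) for none. These letters were searched only in these windows, and a match is not a bound site.

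The pentamer CCAAT, searched after the sequences had been read, was in the windows of 4 of the 5 members, all but Etnppl, and in 37.4% of all windows. At the first start of Cyp4f15, Cyp4f13, Cyp4f14 and Slc25a34 it lay on the reverse strand, 78, 76, 50 and 64 bases before the start in that order, and the window of the last of the 4 Cyp4f14 starts held it on the gene's own strand. The stretches around it in the Cyp4f genes are shown to compare the 3 related promoters. They are 60 bases each, at chr17:32685561-32685620 (plus strand) for Cyp4f15, chr17:32947398-32947457 (minus strand) for Cyp4f13 and chr17:32917367-32917426 (minus strand) for the first of 4 starts of Cyp4f14, with the box in capitals.
Cyp4f15 box: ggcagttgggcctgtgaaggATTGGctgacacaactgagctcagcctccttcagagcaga
Cyp4f13 box: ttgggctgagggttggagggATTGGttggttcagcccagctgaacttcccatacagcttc
Cyp4f14 box: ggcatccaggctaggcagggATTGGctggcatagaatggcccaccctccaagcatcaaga

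Cyp4f15 and Cyp4f13 were identical at 32 of these 60 bases, Cyp4f15 and Cyp4f14 at 34, and Cyp4f13 and Cyp4f14 at 25. These stretches were lined up on the box, which they share by choice, and compared base by base without gaps. The whole coding sequences below were aligned with gaps, so the identities of the promoters and of the coding sequences are not set against each other. The stretch below codes for the loop that holds the haem iron, the catalytic centre of a P450, and is shown because all 3 enzymes share it. Capitals mark the codon of the cysteine that binds the iron, and bases are numbered from the start codon in GENCODE M21 transcripts (1402 to 1461 in Cyp4f15, 1363 to 1422 in Cyp4f13 and 1366 to 1425 in Cyp4f14).
Cyp4f15 haem loop: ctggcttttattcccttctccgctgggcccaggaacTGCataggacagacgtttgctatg
Cyp4f13 haem loop: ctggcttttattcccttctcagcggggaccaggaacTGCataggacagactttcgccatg
Cyp4f14 haem loop: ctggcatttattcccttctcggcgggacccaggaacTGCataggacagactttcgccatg

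In this loop Cyp4f15 and Cyp4f13 were identical at 54 of 60 bases, Cyp4f15 and Cyp4f14 at 53, and Cyp4f13 and Cyp4f14 at 56. Over the whole coding sequence identity was 76.6% between Cyp4f15 and Cyp4f13, 82.2% between Cyp4f15 and Cyp4f14, and 78.4% between Cyp4f13 and Cyp4f14. Most 50-base stretches nonetheless told the genes apart. Only 2.45% of those of Cyp4f15, 2.7% of those of Cyp4f13 and 2.72% of those of Cyp4f14 also occur in a GENCODE transcript of another gene. How the reads themselves were assigned was not measured. No such stretch was found for Etnppl or Slc25a34, and no exon of the 5 genes is overlapped by another gene. The counts ignored strand.

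The genes lie on 3 chromosomes. Etnppl is at chr3:130617448-130635750 on the plus strand, Slc25a34 at chr4:141618819-141623891 on the minus strand and Cyp4f15 at chr17:32685631-32703352 on the plus strand. Cyp4f14, at chr17:32903357-32917376, and Cyp4f13, at chr17:32924688-32947415, are both on the minus strand with 7312 bases between them.

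Etnppl RNA was close to the limit of detection in BKO callosum. It was counted 2 and 3 times in the BKO callosum libraries, against 118, 196 and 165 times in WT callosum. The levels were 0.141 and 0.210 CPM in BKO callosum, against 8.20, 13.2 and 11.4 CPM in WT callosum. The groups lay far apart, and the BKO libraries stood near the floor of 3 counts, which is 0.202 to 0.211 CPM in callosum libraries. The summed counts of 5 in BKO and 479 in WT callosum, scaled for depth, gave a ratio of 0.0160 (95% exact binomial interval 0.00518 to 0.0377, for counting error only). By fitted fold, Etnppl ranked first among the 55 genes called lower in BKO callosum. In bulk tissue, fewer cells of a type and less RNA per cell cannot be told apart.

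Slc25a34 had 4 and 8 counts in BKO callosum, against 118, 106 and 113 counts in WT callosum. Its levels were 0.282 and 0.560 CPM in BKO callosum, against 8.20, 7.12 and 7.83 CPM in WT callosum. The WT libraries differed little from each other and every BKO library was far below them, with a log2 fold change of -4.15 ± 0.31 (SE). Slc25a34 ranked second among the genes called lower.

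Cyp4f15 was lower by less and from a higher level. It stood at 4.65 and 5.95 CPM in BKO callosum (66 and 85 counts), against 22.3, 24.7 and 21.7 CPM in WT callosum (321, 368 and 313 counts). The groups did not overlap, and the log2 fold change was -2.10 ± 0.17 (SE), which ranked it 15th of the 55. All 3 chosen members were among the genes called lower at an adjusted p under 0.05, as their choice required. Of the 14198 genes tested in callosum, 0.387% were called lower, 0.521% higher and 0.909% in either direction.

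**Figure D1:**
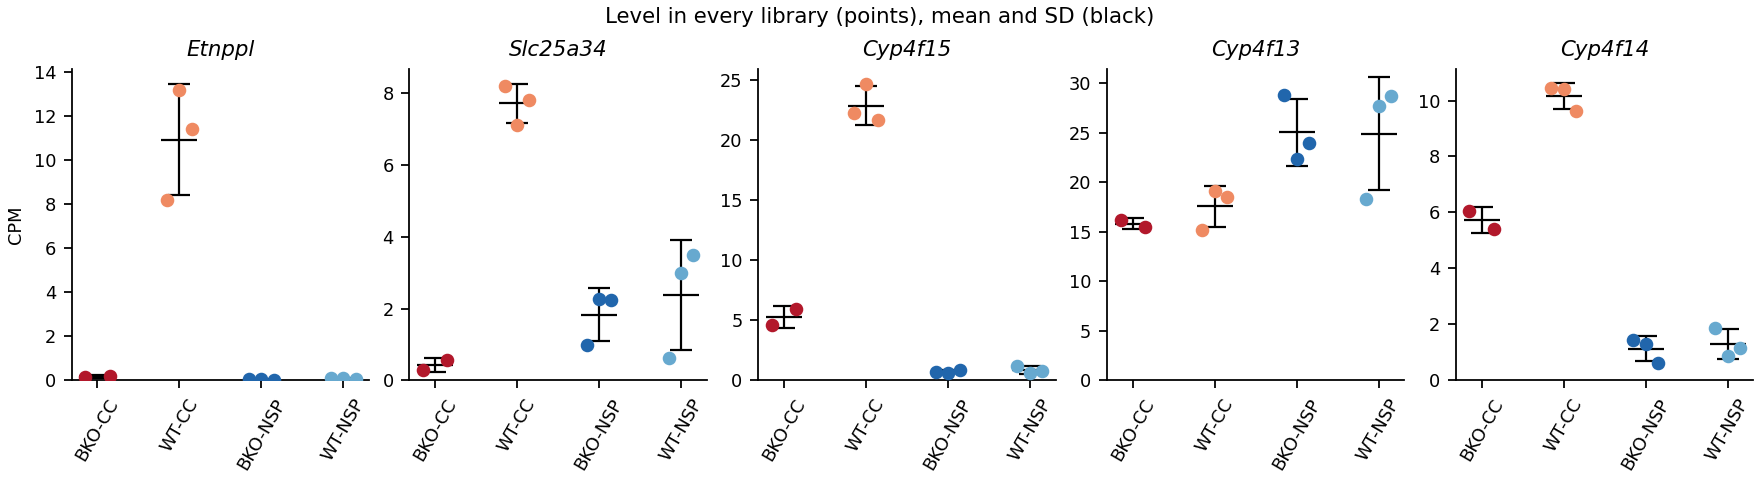
Level of each of the 5 members in CPM in every library, with BKO left of WT for callosum (CC) and for neurospheres (NSP). Each point is a library, and the black marks give the group mean and SD. Etnppl, Slc25a34 and Cyp4f15 separate BKO from WT in callosum, with Etnppl at 0.141 and 0.210 CPM in BKO and 8.20 to 13.2 CPM in WT, while the BKO and WT neurospheres of Slc25a34, Cyp4f15, Cyp4f13 and Cyp4f14 overlap.

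The relatives of Cyp4f15 differed less between the callosum groups. Cyp4f14, whose enzyme hydroxylates leukotriene B4, stood at 6.06 and 5.39 CPM in BKO callosum, against 10.4, 10.4 and 9.63 CPM in WT callosum. The groups did not overlap, and the log2 fold change was -0.81 ± 0.17 (SE), but the adjusted p of edgeR's quasi-likelihood test over all genes was 0.0762, outside the threshold of 0.05. With only 2 BKO and 3 WT callosum libraries, the groups of a gene or of a marker sum can lie apart by chance. The share of all genes whose callosum groups do so was not counted. The adjusted p ran from 0.0366, with DESeq2, to 0.752 over 11 alternative settings, and the direction was the same in all 11.

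Cyp4f13 stood at 16.2 and 15.5 CPM in BKO callosum, against 15.2, 19.1 and 18.5 CPM in WT callosum. The groups overlapped, with a log2 fold change of -0.14 ± 0.15 (SE) and an adjusted p of 0.715 by edgeR. In callosum edgeR and limma-voom called neither of the 2 tested members, and DESeq2 called Cyp4f14.

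**Figure D2:**
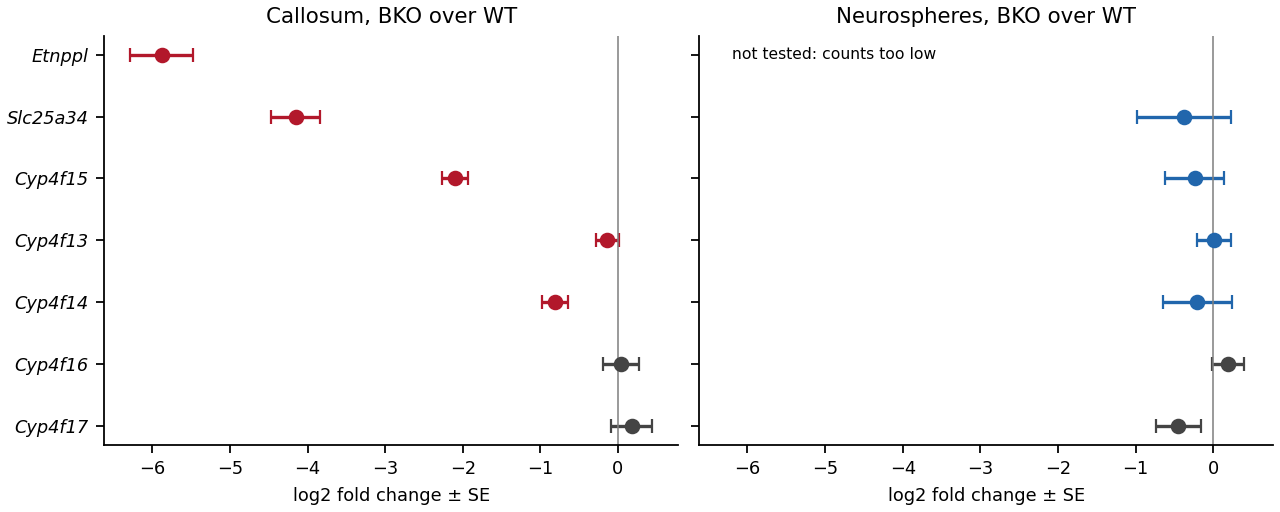
log2 fold change with its SE for the members (red in callosum, blue in neurospheres) and for Cyp4f16 and Cyp4f17 (grey), BKO over WT, with callosum on the left and neurospheres on the right. In callosum the estimates run from -5.88 for Etnppl to 0.17 for Cyp4f17. In neurospheres every estimate lies within 0.5 of 0, and Etnppl was not tested there because of its low counts.

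In neurospheres the libraries of the 4 members that could be tested overlapped between BKO and WT, and Etnppl was under the counting floor. Etnppl was counted 1, 1 and 0 times in BKO neurospheres and 2, 2 and 1 times in WT neurospheres, all under the floor of 3 counts (0.131 to 0.136 CPM), so no fold is given and a difference was not detectable at this depth. Slc25a34 stood at 0.973, 2.27 and 2.24 CPM in BKO neurospheres, against 0.626, 2.98 and 3.51 CPM in WT neurospheres. The first library of each genotype was the low one, the groups overlapped, and the log2 fold change of -0.38 ± 0.60 (SE) had an adjusted p of 0.843 by edgeR.

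Cyp4f15 stood at 0.708, 0.655 and 0.833 CPM in BKO neurospheres, against 1.21, 0.588 and 0.799 CPM in WT neurospheres (log2 fold change -0.24 ± 0.38 SE). Cyp4f14 stood at 1.46, 1.31 and 0.614 CPM in BKO neurospheres, against 1.88, 0.859 and 1.15 CPM in WT neurospheres (-0.20 ± 0.44). Cyp4f13 averaged 25.1 ± 3.38 CPM in BKO and 24.9 ± 5.73 CPM in WT neurospheres (SD, n = 3 each; log2 fold change 0.01 ± 0.22 SE). For these 3 genes the genotypes overlapped and the adjusted p was 0.84 to 0.989. Of the 4 members tested in neurospheres, 0 were called by edgeR and 0 had an unadjusted p under 0.05, and DESeq2 and limma-voom called none of them either. Of all 13968 genes tested there, 0.00716% were called, a single gene, so the neurospheres gave few calls of any kind, and 3.02% of genes had an unadjusted p under 0.05.

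The difference between the callosum and the neurosphere genotype effect was tested for the family members. On the log2 scale it was -0.62 ± 0.49 (SE) for Cyp4f14 and -0.16 ± 0.29 for Cyp4f13, with an adjusted p of 0.999 for both by edgeR. It was -3.80 ± 0.88 for Slc25a34 and -1.87 ± 0.40 for Cyp4f15, given without a test because their callosum contrast chose them. Of 15322 genes, 0.0131% were called for this difference.

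The members differed in where they were expressed. Cyp4f15 and Cyp4f14 were highest in WT callosum and lowest in neurospheres, Etnppl was well above the counting floor in WT callosum alone, Slc25a34 was highest in WT callosum and lowest in BKO callosum, and Cyp4f13 was higher in neurospheres. This comparison shares the WT callosum libraries with the contrast that chose Etnppl, Slc25a34 and Cyp4f15, whose differences are therefore given without a test.

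Etnppl averaged 10.9 ± 2.52 CPM in WT callosum and 0.0747 ± 0.0263 CPM in WT neurospheres (SD, n = 3 each), with a summed-count ratio of 147 (95% exact binomial interval 62.5 to 454). Cyp4f15 averaged 22.9 ± 1.61 CPM in WT callosum and 0.865 ± 0.315 CPM in WT neurospheres, a log2 fold change of 4.73 ± 0.24 (SE). Slc25a34 averaged 7.72 ± 0.549 CPM in WT callosum and 2.37 ± 1.53 CPM in WT neurospheres (1.71 ± 0.46). The libraries of the sources did not overlap for these genes.

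Cyp4f14 was higher in WT callosum, at 10.2 ± 0.458 CPM, than in WT neurospheres, at 1.30 ± 0.524 CPM, with a log2 fold change of 2.97 ± 0.27 (SE) and an adjusted p of 4.49e-06 by edgeR. Cyp4f13 was lower in WT callosum, at 17.6 ± 2.08 CPM, than in WT neurospheres, at 24.9 ± 5.73 CPM, with -0.49 ± 0.19 and an adjusted p of 0.0334. The Cyp4f13 call was lost in 8 of 12 alternative settings, where the adjusted p reached 0.115, and without the first WT neurosphere library it was 0.000496. Calls were common in this comparison, since of 14733 genes tested 85.8% were called, 42% as higher and 43.8% as lower in WT callosum. TMM factors over all libraries were 0.807 to 0.850 in WT callosum and 1.14 to 1.19 in WT neurospheres. A source fold change as small as that of Cyp4f13 therefore depends on the scaling.

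The order of the 4 groups was the same for Cyp4f15 and Cyp4f14. WT callosum lay above BKO callosum and BKO callosum above both neurosphere groups with no overlap, and the neurosphere groups overlapped. The step between the callosum groups was set by choice for Cyp4f15 and was not called by edgeR for Cyp4f14. The share of all genes with this order was not counted, and 42% of genes were called higher in WT callosum than in WT neurospheres. For Slc25a34 the BKO callosum, at 0.421 ± 0.197 CPM (SD, n = 2), lay below BKO neurospheres at 1.83 ± 0.739 CPM (SD, n = 3) and below WT neurospheres, with no overlap. For Cyp4f13 every pair of neighbouring groups overlapped. For Etnppl the 3 groups below WT callosum were at or near the counting floor, and their order is not read.

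The make-up of Cyp4f RNA is described next, and its difference between the callosum groups rests on Cyp4f15, which was chosen because it was lower in BKO callosum. Dividing CPM by transcript length (CPM per kilobase of the longest consensus coding transcript) allows levels to be set against each other between genes. Cyp4f13 has a single such transcript, of 1752 bases, while its annotated exons together cover 4441 bases. Over a longer transcript its levels and shares below would be lower. Of the Cyp4f genes, 5 were measurable, the members Cyp4f15, Cyp4f13 and Cyp4f14 and their relatives Cyp4f16 and Cyp4f17. Cyp4f18, Cyp4f37, Cyp4f39, Cyp4f40 and the pseudogene Cyp4f41-ps had at most 9 counts in a library.

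The summed level of the 5 measurable genes was 17.2 ± 0.749 CPM per kilobase in BKO callosum (SD, n = 2) and 28.1 ± 1.56 in WT callosum (SD, n = 3). Cyp4f15 made up 14.2 ± 1.85% of that sum in BKO callosum and 37.5 ± 1.14% in WT callosum. Cyp4f13 made up 52.6 ± 4.02% in BKO callosum and 35.7 ± 3.05% in WT callosum, so that Cyp4f15 and Cyp4f13 were about level in WT callosum and Cyp4f13 led in BKO callosum. The share of Cyp4f14 was 16.4% and 13.7% in the BKO callosum libraries and 16.3 ± 1.01% in WT callosum. Shares of a sum move together, and they were not tested.

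In neurospheres Cyp4f13, set over its 1752-base transcript, had the largest share. Cyp4f13 made up 56.2 ± 2.00% in BKO and 54.9 ± 6.22% in WT neurospheres (SD, n = 3 each). Cyp4f16 made up 27.9 ± 2.94% in BKO and 24.7 ± 5.24% in WT neurospheres, and Cyp4f17 made up 12.6 ± 4.85% in BKO and 16.4 ± 1.40% in WT neurospheres. The place of Cyp4f17 depends on which transcript is made: over its transcript of 1693 bases in place of 2940, its level in WT neurospheres would be 7.37 CPM per kilobase, above the 6.28 of Cyp4f16 on its own shortest transcript. Cyp4f15 made up 1.34 ± 0.216% in BKO and 1.62 ± 0.811% in WT neurospheres. The sums were 25.4 ± 2.54 CPM per kilobase in BKO neurospheres and 25.7 ± 3.34 in WT neurospheres.

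**Figure D3:**
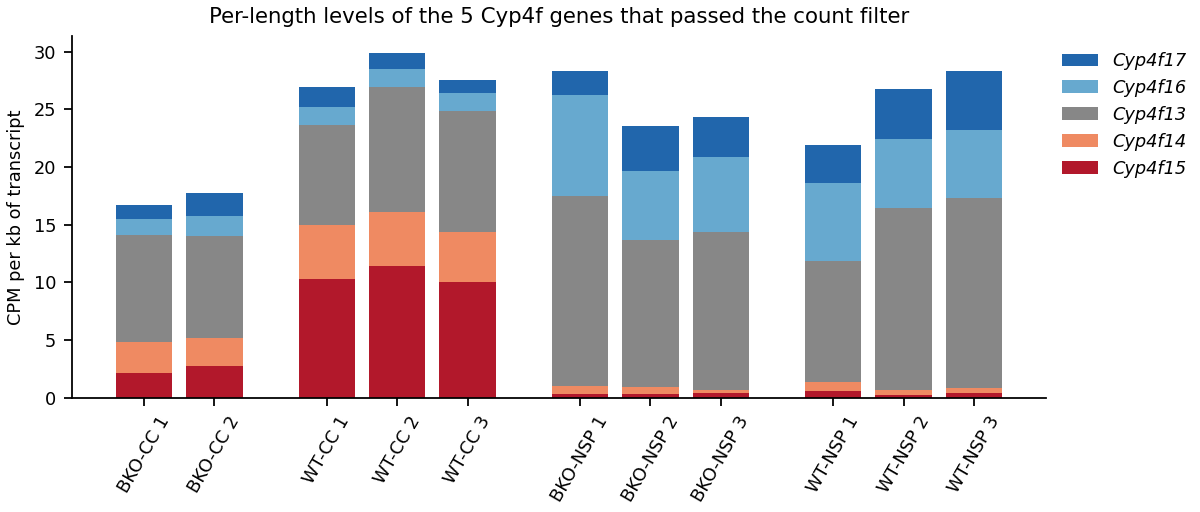
Level of 5 Cyp4f genes, in CPM per kilobase of transcript, stacked in every library, with BKO left of WT in callosum (CC) and in neurospheres (NSP). Cyp4f15, at the foot of each bar, takes 14.2% of the bar on average in BKO callosum and 37.5% in WT callosum, and 1.34% in BKO and 1.62% in WT neurospheres.

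Cyp4f16 and Cyp4f17 were not called between genotypes. In callosum the log2 fold change was 0.04 ± 0.23 (SE) for Cyp4f16, with an adjusted p of 0.958 by edgeR, and 0.17 ± 0.26 for Cyp4f17, with an adjusted p of 0.798. The sign of each turned in 1 of 11 alternative settings, without the second BKO callosum library, at -0.16 and -0.21. Cyp4f16 was lower in WT callosum, at 3.46 ± 0.0797 CPM, than in WT neurospheres, at 14.0 ± 0.982 CPM (SD, n = 3 each; adjusted p 1.63e-06). Its count is uncertain, since 26.5% of its 50-base stretches also occur in transcripts of other genes, chiefly Cyp4f37.

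Set over the longest consensus coding transcript, Cyp4f15 and Cyp4f13 were the most abundant members in WT callosum. The place of Cyp4f13 depends on its transcript of 1752 bases, since its annotated exons together cover 4441 bases. Cyp4f15 had 2.45 CPM per kilobase in BKO callosum and 10.6 in WT callosum, and Cyp4f13 had 9.04 in BKO and 10.0 in WT callosum. Cyp4f14 had 2.58 CPM per kilobase in BKO and 4.57 in WT callosum, and Slc25a34 had 0.158 in BKO and 2.89 in WT callosum. Etnppl had 0.0393 CPM per kilobase in BKO and 2.45 in WT callosum over its 4468-base transcript. Over its other transcript, of 1712 bases, the Etnppl values would be 0.102 and 6.39, so its place against Slc25a34 and Cyp4f14 depends on which transcript is made.

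The nearest expressed neighbours of the 3 chosen members on the chromosome were not called in callosum, where 0.909% of all genes were called. At that share, no call is the usual outcome for so few genes. Col25a1, which encodes a collagen-like membrane protein and ends 17564 bases before Etnppl, had -0.22 ± 0.15 on the log2 scale (SE; adjusted p 0.545 by edgeR). Ostc, a subunit of the oligosaccharyltransferase, lies 60167 bases after Etnppl and had -0.29 ± 0.17 (adjusted p 0.476). Tmem82, 186 bases from Slc25a34, was low, at 0.175 CPM in BKO and 0.829 CPM in WT callosum, with -2.17 ± 0.79 (adjusted p 0.285). Its mean in BKO callosum was under the counting floor, so whether it differed cannot be told at this depth. Plekhm2, which acts in lysosome transport and lies 1841 bases on the other side of Slc25a34, had 0.07 ± 0.09 (adjusted p 0.764). Zfp871, a zinc finger gene 62144 bases after Cyp4f15, had -0.82 ± 0.27 (adjusted p 0.248). Cyp4f16, the nearest expressed gene on the other side at 133833 bases, is given above. Cyp4f37 and Cyp4f40 lie between Cyp4f16 and Cyp4f15 but had too few counts to be measured.

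**Figure D4:**
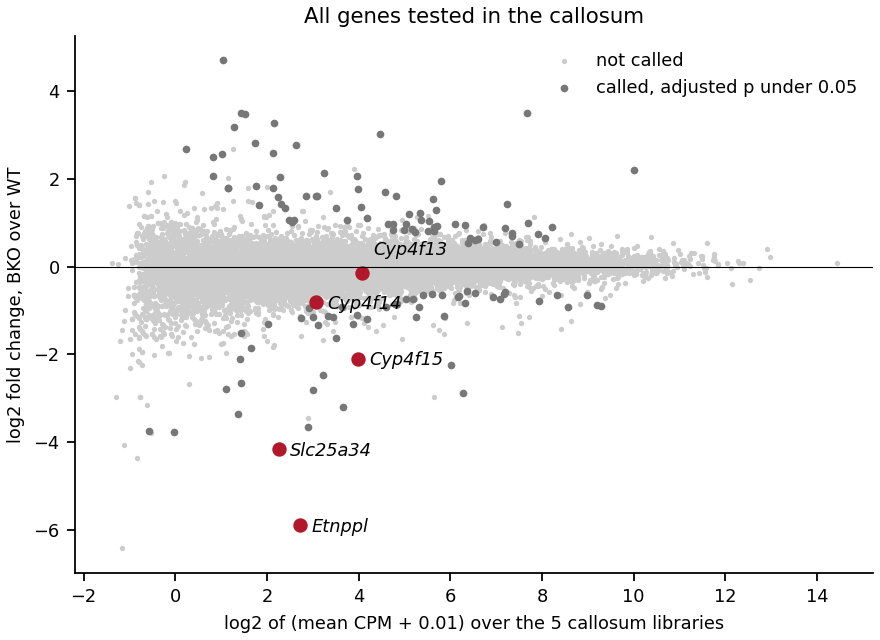
log2 fold change of BKO over WT callosum for each of 14198 genes against log2 of (mean CPM + 0.01), with the 5 members in red. Each point is a gene, and darker grey points were called. Etnppl (-5.88), Slc25a34 (-4.15) and Cyp4f15 (-2.10) lie below the bulk of the genes, and Cyp4f14 (-0.81) and Cyp4f13 (-0.14) lie nearer to 0.

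Among other genes of the members' pathways edgeR made no call between genotypes, in comparisons where it called 0.909% of all genes in callosum and 0.00716% in neurospheres, so that a list of this size would hold few calls or none at the background share. Of 13 genes of ethanolamine phospholipid synthesis, 12 were tested in callosum and 0 were called, with a median log2 fold change of -0.10 beside -0.01 over all genes. The one with the smallest p was Ept1, the enzyme that transfers phosphoethanolamine onto diacylglycerol, at 11.1 CPM in BKO and 18.0 CPM in WT callosum (adjusted p 0.239). In neurospheres 11 were tested and 0 were called, with a median of 0.12, and Pemt, which methylates phosphatidylethanolamine to phosphatidylcholine, came first (adjusted p 0.798).

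Of 18 genes of omega oxidation and eicosanoid metabolism, 16 were tested in callosum and 0 were called, with a median of -0.22, 11 below 0 and 5 above. Cyb5r3, a reductase that passes electrons to cytochrome b5, had the smallest p and stood at 299 CPM in BKO and 221 CPM in WT callosum, with an adjusted p of 0.0764 by edgeR and 0.00301 by DESeq2. Ptgds and Cyp2j9 went the other way. Ptgds stood at 218 CPM in BKO and 516 CPM in WT callosum, and Cyp2j9 at 8.92 and 14.5 CPM (adjusted p 0.105 and 0.104 by edgeR). In neurospheres 16 were tested and 0 were called, with a median of 0.07, and Adh5, which oxidises omega-hydroxy fatty acids and formaldehyde adducts, came first (adjusted p 0.798). Of 15 other Cyp4 genes only 4 were tested in callosum and 3 in neurospheres, and 0 were called in each, with medians of 0.09 and 0.08.

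**Figure D5:**
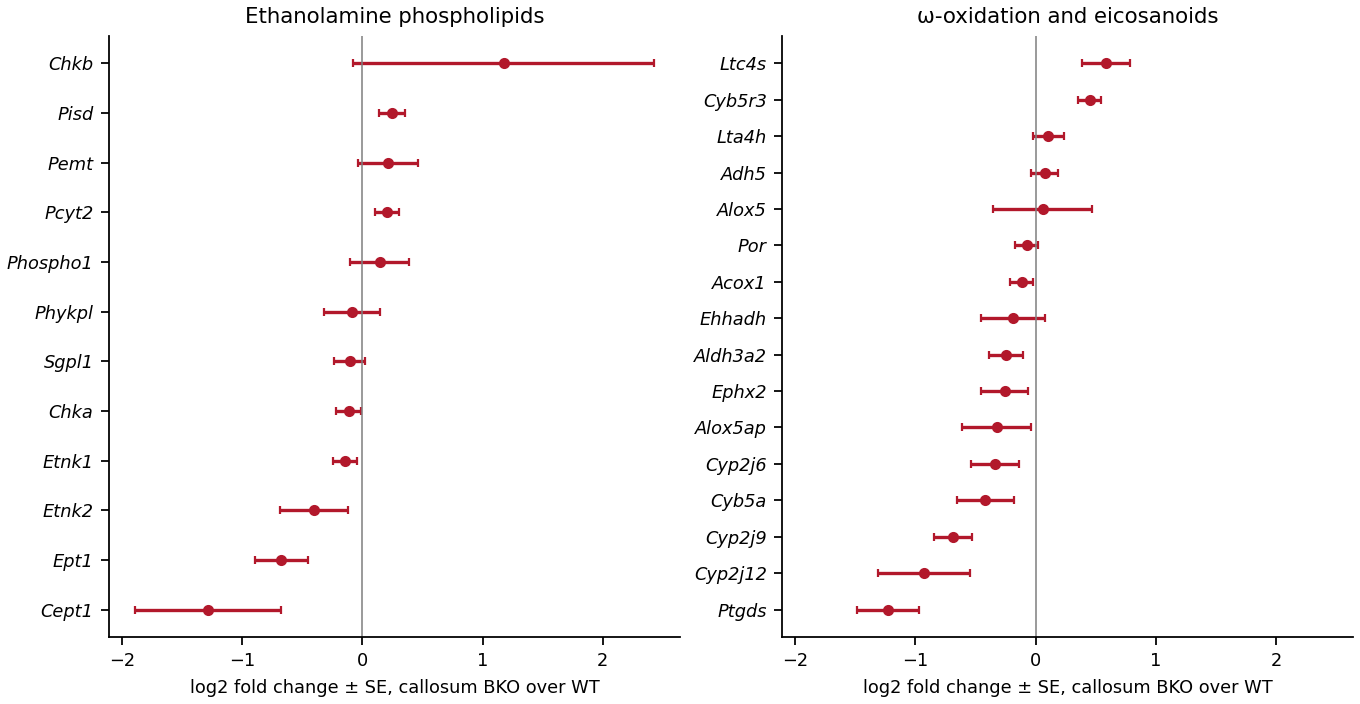
log2 fold change with its SE, BKO over WT callosum, for the 12 tested genes of ethanolamine phospholipid synthesis (left) and the 16 of omega oxidation and eicosanoid metabolism (right). None was called by edgeR in either list, and the smallest p in each belonged to Ept1 (-0.68) and Cyb5r3 (0.45), of which DESeq2 called Cyb5r3.

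Of 21 other mitochondrial carriers, 19 were tested in callosum and 0 were called, with a median of 0.00. Slc25a22, a carrier of glutamate, had the smallest p, at 869 CPM in BKO and 637 CPM in WT callosum (adjusted p 0.199). In neurospheres 19 were tested and 0 were called, with a median of 0.15, and Slc25a18, another glutamate carrier, came first, at 153 CPM in BKO and 112 CPM in WT neurospheres (adjusted p 0.798).

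Of 17 clock and D-box factors tested in callosum, 3 were called higher and 5 lower, where 0.521% of all genes were called higher and 0.387% lower. Their median was -0.34, and the other 9, Arntl, Clock and Per1 among them, were not called. Dbp, the activator that binds D-boxes, fell to 15.3 and 16.7 CPM in BKO callosum, against 108 to 130 CPM in WT callosum, and Nr1d2, a repressor that binds RREs, fell to 1.72 CPM in BKO, against 12.2 CPM in WT callosum. The other genes called lower were Per3, Ciart and Nr1d1. Nfil3, which represses through D-boxes, rose to 25.9 CPM in BKO callosum, against 10.2 CPM in WT callosum, and Cry1 and Npas2 were also called higher. Over 11 alternative settings Dbp, Nr1d2 and Per3 were called in all 11, Nfil3, Cry1 and Ciart in 10, Npas2 in 9 and Nr1d1 in 7. In neurospheres Nr1d2 was the only one of the 17 called by edgeR, at 3.61 CPM in BKO and 62.6 CPM in WT neurospheres (adjusted p 0.000403). The median of the 17 was -0.48 there, with 13 below 0 and 4 above. Large differences without a call were those of Per3, at 14.6 CPM in BKO and 78.6 CPM in WT neurospheres (adjusted p 0.110), and Nr1d1, at 48.4 and 187 CPM (0.219). Npas2 was higher, at 35.1 CPM in BKO and 8.61 CPM in WT neurospheres (0.0910). These lists were drawn up with earlier results of the same libraries known.

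Markers of the cells that could carry these RNAs were measured in the same libraries. For astrocytes, in which Etnppl is known to be expressed, 16 marker genes, none at 0, summed to 6385 and 7560 CPM in BKO callosum, against 5239 to 5572 CPM in WT callosum. Among them Gfap was called higher and Aldh1l1 lower, and their median log2 fold change was 0.03, and every BKO sum lay above every WT sum. The 16 genes summed to 6498 to 8189 CPM in BKO and 7927 to 8209 CPM in WT neurospheres, where Etnppl was under the floor.

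Sums of markers of other cells and regions went in both directions, with no gene called in the lists that follow. For choroid plexus, 7 genes, none at 0 in callosum, summed to 10.9 and 14.5 CPM in BKO callosum, against 23.9 to 185 CPM in WT callosum, and all 5 tested had a log2 fold change below 0, with 0 called. For striatal neurons, 10 genes, none at 0 in callosum, summed to 1195 and 1543 CPM in BKO callosum, against 1352 to 3919 CPM in WT callosum, with a median log2 fold change of -1.21 and 0 called. The 9 markers of pericytes, smooth muscle and fibroblasts summed to 140 and 191 CPM in BKO callosum, against 183 to 239 CPM in WT callosum, with Lum at 0 in BKO. The 7 endothelial markers summed to 199 and 234 CPM in BKO callosum, against 153 to 216 CPM in WT callosum, with a median log2 fold change of 0.12. The sums of the striatal, pericyte and endothelial lists overlapped between the labels, and those of choroid plexus did not. With so few libraries, sums can lie apart by chance, for choroid plexus and for astrocytes alike. Their part in the members' differences was not tested.

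For each member the 3 genes with the closest pattern were found by Pearson's r of log2 CPM over the 11 libraries, among 15322 genes. The libraries share their source and genotype groups, so r mostly follows the group means. Etnppl, Slc25a34 and Cyp4f15 were chosen as lower in BKO callosum, so genes like them also tend to be lower there. Etnppl was at or near the counting floor in every group but WT callosum, so its r rests on WT callosum against the rest. Etnppl was most like Hsd11b1, which regenerates active glucocorticoid (r = 0.967, 0.632 CPM in BKO and 4.05 CPM in WT callosum), and then Inmt, a methyltransferase (0.966), and Slco1a4, an organic anion transporter of brain endothelium (0.963). Inmt stood at 0.1055 CPM in BKO and 1.557 CPM in WT callosum, and Slco1a4 at 0.1052 and 0.8905 CPM, so both were under the counting floor in BKO callosum. Both were also under it in BKO and WT neurospheres, at 0.015 and 0.044 CPM for Inmt and 0.044 and 0.074 CPM for Slco1a4. Slco1a4 is one of the 7 endothelial markers, of which 5 had a callosum log2 fold change above 0 and 2, Slco1a4 among them, below 0. Slc25a34 was most like Gm5577 (0.921), Mapk4 (0.914) and Slc12a8 (0.907), less close than the best for any other member. Cyp4f15 was most like Cables1 (0.990), Kirrel2 (0.987, 2.11 CPM in BKO and 19.7 CPM in WT callosum) and Gkn3 (0.986). In neurospheres Kirrel2 was near the floor, at 0.176 CPM in BKO and 0.104 CPM in WT, and Gkn3 was at 0 CPM in both. Cyp4f14 was most like Cyb561d1 (0.994), 4930481A15Rik (0.991) and Rin1 (0.988). Cyp4f13 was most like 2810405F15Rik (0.966), Rras (0.964) and Dleu2 (0.959).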

How the data were processed

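Reads were aligned with STAR 2.7.1a to mm10, per the submitters' processing notes, and the authors deposited raw read counts per gene symbol for each library. The sources used here do not give the annotation that was counted. The strand-ignoring count column was used. Rows of unassigned reads were left out: unmapped reads were 7.77% to 8.46% of reads in callosum and 13.7% to 22.6% in neurosphere libraries, and reads outside genes 8.55% to 9.93% and 14.5% to 16.6%, so preparation and source cannot be told apart.

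Groups came from the sample titles. Each contrast was fitted in R 4.3.3 with edgeR 4.0.16 (TMM, filterByExpr, glmQLFit with robust = TRUE, glmQLFTest, two-sided), with Benjamini-Hochberg adjustment over all genes tested. A gene was called at an adjusted p under 0.05. The code was tested on simulated data. Alternatives used RLE scaling, no filter, DESeq2 1.42.0, limma-voom 3.58.1, a model of all 11 libraries, a replicate block and leaving out each library. Within groups the chi-square statistic of replicate pairs was 6.85 to 132 per degree of freedom, so each library was kept as a replicate. Pairs with the first BKO neurosphere library stood at 132 and 130, against 13.4 for the other pair of that group. Pairs with the first WT neurosphere library stood at 34.9 and 45.9, against 6.85. The first neurosphere library of each genotype thus stood apart, which widens the SE in neurospheres. No label says that the libraries of a group came from different mice or cultures. A p-value therefore sets a difference against a spread between libraries that may be technical.

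The members and gene lists were chosen with earlier results of these data known. The genes named are the 5 members, the 3 genes most correlated with each, the called genes of each list or the one with the smallest p, and the nearest expressed neighbours. Cyp4f16 and Cyp4f17 were described in full as relatives, and Ptgds, Cyp2j9 and some clock genes are named although not called. Intervals and floors of 3 counts cover counting error only. Sequences came from RefSeq (GRCm38.p6) and GENCODE M21 transcripts.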

Additional observations from a re-analysis of the deposited data

How the results depend on the processing

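In BKO against WT callosum the 3 chosen members kept their direction in 11 of 11 alternatives, from -6.17 to -5.63 on the log2 scale for Etnppl, -4.71 to -3.75 for Slc25a34 and -2.27 to -1.93 for Cyp4f15. They were chosen because they were lower in this contrast of these libraries. The kept direction is therefore no test of their difference. The count of called genes there, 129, depended on the setting: it was 224 with no filter, 331 with DESeq2, 33 with a model of all 11 libraries, and 27 to 192 on leaving out a library (27 without WT callosum replicate 3, 49 without BKO callosum replicate 1). In neurospheres the count of 1 became 5 with no filter, 34 with DESeq2, 2 with limma-voom, 19 with a model of all libraries and 1 to 5 on leaving out a library. For the difference between the genotype effects the count of 2 became 37 with DESeq2 and 1 to 10 on leaving out a library.

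Small fold changes turned sign on leaving out a library, over ranges of -0.16 to 0.23 for Cyp4f16 and -0.21 to 0.49 for Cyp4f17 in callosum, -0.82 to 0.017 for Slc25a34, -0.45 to 0.083 for Cyp4f15, -0.16 to 0.12 for Cyp4f13 and -0.43 to 0.17 for Cyp4f14 in neurospheres, and -0.29 to 0.0040 for the Cyp4f13 difference between genotype effects. Cyp4f13 in neurospheres was also -0.0019 with no filter. The cause was not tested.

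Same-numbered libraries deviated together in some pairs only (correlations of 0.0498 and 0.0119 in callosum, and 0.28, -0.0128 and 0.314 in neurospheres), so the numbers were not taken as pairs. With a replicate block 131 genes were called in callosum, 2 in neurospheres, 12557 between sources and 1 for the difference between genotype effects. Depth limits Etnppl, since at 0 to 3 counts in 8 of the 11 libraries a further fall could not be seen.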
